A study of Mus musculus with 8 samples.

Results

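The enzymes that build and break down inositol polyphosphates and inositol pyrophosphates were examined in epididymal white adipose tissue, the fat beside the epididymis, of male mice. The 10 genes were taken by name as kinases and phosphatases of this pathway: Ipmk, Ippk, Itpk1, Ip6k1, Ip6k2, Ppip5k1, Ppip5k2, Minpp1, Nudt3 and Nudt4. No cut on their measured values was used, but earlier results of these data were known when they were chosen. All 10 were among the 34866 genes of the deposited table, and all 10 passed the filter on low counts, which left 12480 genes. In all 8 samples both copies of the aromatase gene Cyp19a1 were floxed, that is, flanked by loxP sites. The 4 control samples were labelled Aromatase flox/flox and the 4 knockout samples aP2-Cre;Aromatase flox/flox. The aP2-Cre transgene expresses Cre recombinase from the promoter of Fabp4, a gene of adipocytes that macrophages also use, and no group with the transgene but without floxed alleles was analysed here. Ages are not given in the sources used here.

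Inositol pyrophosphates are small signalling molecules in which an inositol ring carries, besides single phosphate groups, a diphosphate group. Ipmk, Itpk1 and Ippk lead to the fully phosphorylated ring, IP6; the IP6 kinases add a diphosphate to give IP7, and the Ppip5k enzymes act on IP6 and IP7, giving IP8. Nudt3 and Nudt4 remove the added phosphate and Minpp1 strips phosphates from IP6. The level of these molecules follows the supply of ATP and phosphate in the cell, and they bind SPX domains, such as that of the phosphate exporter Xpr1. In fat, Ip6k1 is known for a role in insulin signalling and energy expenditure. The study looked in adipose tissue for genes under Cyp19a1 that act on phosphorus metabolism, and these enzymes bear on how cells sense phosphate.

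The libraries held 1538427 to 3045488 estimated counts in the control and 2237345 to 3053565 in the knockout group. Values are given as CPM, counts brought to 1000000 per library on sizes corrected by the trimmed mean of M values (TMM), and 3 counts, the limit that a count of 0 allows, were worth 0.984 to 1.92 CPM. Cyp19a1 itself had 1 to 5 estimated counts in the control and 0 to 4 in the knockout libraries, too few to check the deletion. All 10 adipocyte markers examined were detected, at a summed 44300 to 58500 CPM in the control and 37000 to 54600 CPM in the knockout libraries. Of 6 epididymis markers 5 were at 0 in all libraries (Crisp1, Lcn5, Lcn8, Rnase9 and Defb15), and Adam7 had 9 estimated counts in control replicate 2, 22 in knockout replicate 3 and 0 or 1 in the other 6. All 10 macrophage markers had a higher mean in the knockout libraries, from 1.11-fold for C1qa to 4.01-fold for Mmp12. By edgeR's test 4 of them passed an adjusted p of 0.05, against 0.168% of all tested genes. The 10 markers summed to 880 to 996 CPM in the control against 1470 to 1790 CPM in the knockout libraries. They were chosen with earlier results of these data known. In whole tissue, fewer cells of a type and less RNA per cell cannot be told apart. The labels list the libraries as separate samples without naming animals, so p-values measure the spread between these samples.

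By edgeR's quasi-likelihood test none of the 10 genes differed between the genotypes at an adjusted p under 0.05, against 21 of 12480 genes tested, or 0.168%. The largest differences in either direction were those of Ppip5k1, with a lower mean in the knockout libraries, and Ipmk, with a higher one, and their log2 fold changes were -0.45 and 0.45. Of the 10 genes 7 had a higher and 3 a lower mean in the knockout libraries, with a median log2 fold change of 0.10, where the median over all tested genes was 0.00 and 49.7% of them had a value above 0. An unadjusted p under 0.05 was reached by 1 of the 10, Ppip5k1, against 6.39% of all tested genes. The libraries of the genotypes did not overlap in 1 of the 10, Ipmk, against 4.21% of all tested genes. Across the 10 genes, each taken by itself, the 95% intervals lay between 0.558-fold and 1.91-fold of the control level. These intervals are not adjusted for the number of genes tested. They do not give the smallest difference that a test at an adjusted p under 0.05 would have detected.

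**Figure D1:**
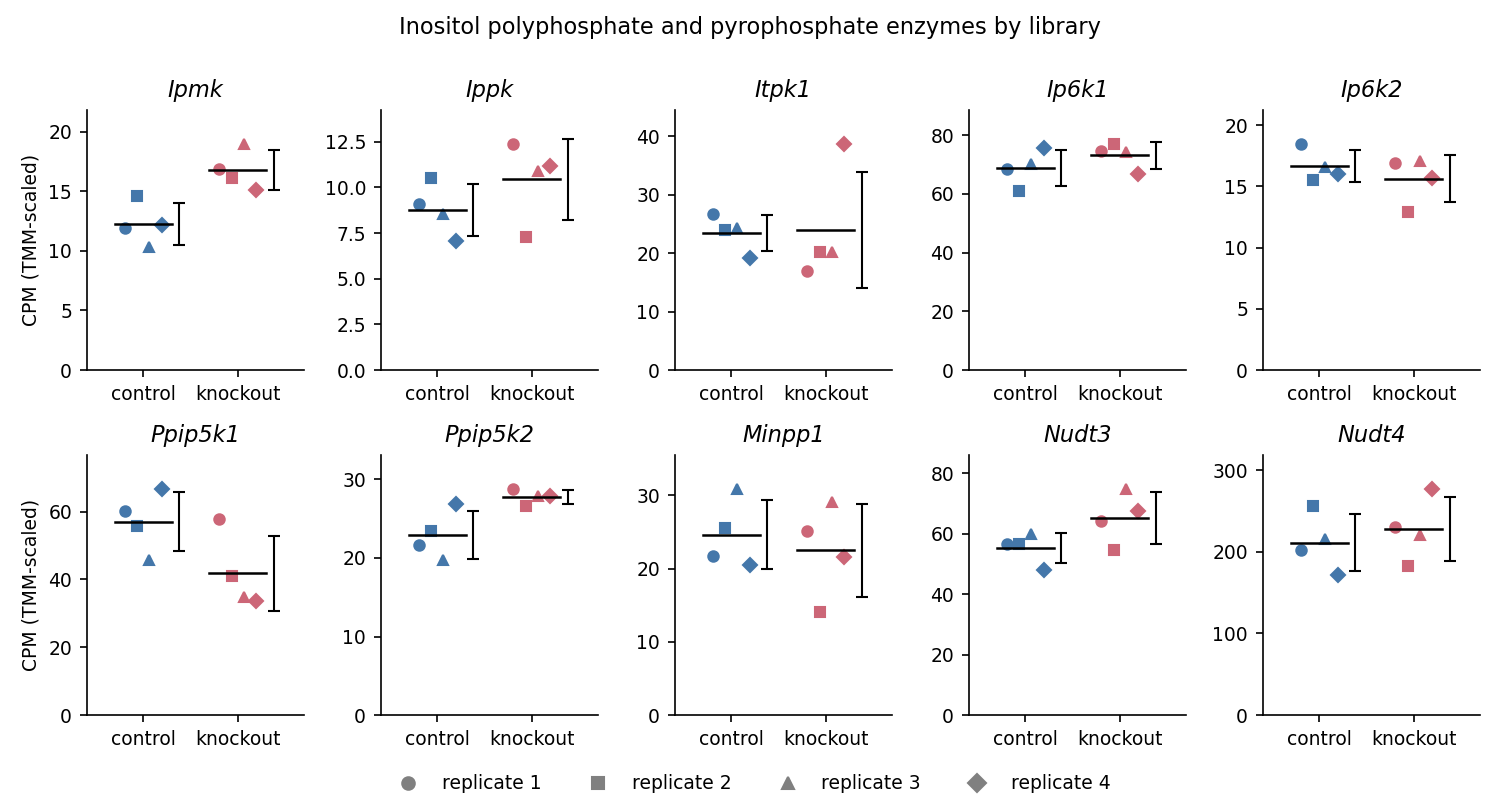
CPM of each of the 10 genes in each library (symbols, replicates 1 to 4), with the group mean as a line and the mean ± SD as a bar beside it (n = 4 per group); each panel has its own axis from 0. The knockout values of Ipmk, 15.1 to 19.0 CPM, lie above all control values; in the other 9 panels the groups overlap.

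Ipmk, inositol polyphosphate multikinase, adds phosphates to the inositol trisphosphate released by phospholipase C and so feeds the whole branch (chr10:71347763-71433327, plus strand; positions here and below are protein-coding genes of GENCODE M21 on GRCm38). It was at 11.9, 14.6, 10.3 and 12.2 CPM in control replicates 1 to 4 and at 16.9, 16.1, 19.0 and 15.1 CPM in knockout replicates 1 to 4. Every knockout library lay above every control library, the nearest pair being 14.6 and 15.1 CPM. The means were 12.3 ± 1.79 and 16.8 ± 1.66 CPM (SD, n = 4), a 1.37-fold level with a 95% interval of 0.977 to 1.91 (log2 fold change 0.45, SE 0.23, edgeR adjusted p = 0.813). These values rest on 18.5 to 34.9 estimated counts per control library and 37 to 49 per knockout library. The unadjusted p was 0.0661, and 0.0459 without control replicate 2.

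Ippk, the kinase that adds the last phosphate to make IP6, was the member with the fewest counts, 11 to 26 per control and 18 to 34 per knockout library (chr13:49421249-49464573, plus strand). Its values were 9.08, 10.5, 8.52 and 7.05 CPM in the control and 12.4, 7.26, 10.9 and 11.2 CPM in the knockout libraries. Knockout replicate 2 was below 3 of the 4 control libraries, and the other 3 knockout libraries were above all of them. The log2 fold change was 0.23 with a 95% interval of -0.39 to 0.85 (edgeR adjusted p = 0.945). On the opposite strand Ippk shares 315 of its 4831 exon bases with Cenpp, which was at 1.05 to 3.85 CPM in the control and 3.28 to 4.58 CPM in the knockout libraries, and whether reads were assigned by strand is not given in the sources used here.

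Itpk1, a kinase that acts on inositol trisphosphates and tetrakisphosphates, was at 26.6, 23.9, 24.2 and 19.2 CPM in the control libraries (chr12:102568582-102704930, minus strand). In the knockout libraries it was at 16.9, 20.2, 20.2 and 38.7 CPM. Knockout replicate 4 alone was above all control libraries, while the other 3 knockout libraries lay within or below the control range. The means were 23.5 ± 3.06 and 24.0 ± 9.92 CPM (SD, n = 4), with a log2 fold change of 0.04 (edgeR adjusted p = 0.992). Without knockout replicate 4 the log2 fold change was -0.31 (edgeR adjusted p = 0.888). The sign also reversed in fits that kept that library, such as -0.038 without control replicate 4, so it was not stable.

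The IP6 kinases Ip6k1 and Ip6k2 place the diphosphate on IP6 and lie 735 kb apart on chromosome 9. Ip6k1 (chr9:108002501-108048782, plus strand) was at 68.5, 61.1, 70.0 and 75.6 CPM in the control and at 74.6, 77.1, 74.1 and 66.6 CPM in the knockout libraries. The groups overlapped, and the highest control library exceeded 3 of the 4 knockout libraries. The log2 fold change of Ip6k1 was 0.09 with a 95% interval of -0.16 to 0.34, the narrowest of the 10 (edgeR adjusted p = 0.948), or 0.894-fold to 1.27-fold of the control level. Ip6k1 shares 939 words of 31 bases with Gm20662, an overlapping gene on the same strand. Gm20662 was listed at 0 in 7 libraries and had 1.3 estimated counts in knockout replicate 4. How many reads came from the shared stretch cannot be read from counts per gene.

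Ip6k2 (chr9:108783796-108806337, plus strand) was at 18.5, 15.5, 16.6 and 16 CPM in the control and at 16.9, 12.9, 17.1 and 15.7 CPM in the knockout libraries. Only knockout replicate 2 fell outside the control range. The log2 fold change was -0.09 with a 95% interval of -0.54 to 0.36 (edgeR adjusted p = 0.979). Ip6k3, the third IP6 kinase and known chiefly from muscle, had 0 to 6 estimated counts per library and did not pass the filter.

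Ppip5k1 and Ppip5k2 encode the paired enzymes with a kinase and a phosphatase domain in one protein, which form and remove the second diphosphate. Ppip5k1 (chr2:121310561-121355396, minus strand) was at 60.1, 55.7, 45.7 and 66.7 CPM in control replicates 1 to 4. In knockout replicates 1 to 4 it was at 57.7, 41.1, 34.9 and 33.5 CPM. Knockout replicates 2 to 4 were below every control library, and knockout replicate 1 lay inside the control range. The means were 57.0 ± 8.79 and 41.8 ± 11.1 CPM (SD, n = 4), a 0.731-fold level with a 95% interval of 0.558 to 0.957 (log2 fold change -0.45, SE 0.18, edgeR adjusted p = 0.695). The unadjusted p was 0.0258, which ranked 460 among the 12480 genes. That p exceeded 0.05 without control replicate 1 (0.0595), control replicate 4 (0.0664), knockout replicate 3 (0.0745) or knockout replicate 4 (0.0805). Without knockout replicate 1 the log2 fold change was -0.64 (edgeR adjusted p = 0.393).

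Part of the Ppip5k1 sequence is shared with other genes. Of its 12784 words of 31 bases 2.14% also occur in other genes of the table. They are spread over 1795 genes, with at most 100 words in any of them. That percentage was 16.1% for Ip6k1, 23% for Minpp1 and lower for the other members. Most of the shared Ppip5k1 words lie in transcripts annotated as retained introns, at least 670 bases from the 3′ end. The coding transcripts hold 0 or 4 of them. Of the retained-intron transcripts 1 holds a run of 17 A. The median log2 fold change was 0.02 over the 1099 tested genes whose longest run was 15 to 30 A, the class that holds Ppip5k1. It was -0.30 over the 56 tested genes with longer runs. On the opposite strand Ppip5k1 shares 272 of its 12486 exon bases with Map1a. That gene was at 18.9, 23.0, 27.4 and 32.7 CPM in the control and 13.7, 23.4, 29.5 and 51.5 CPM in the knockout libraries. Among the knockout libraries the highest Map1a value and the lowest Ppip5k1 value fell in replicate 4. Among the control libraries the highest values of both genes fell in replicate 4. The part of the overlap in the Ppip5k1 values was not tested.

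Ppip5k2 (chr1:97706048-97770411, minus strand) was at 21.7, 23.4, 19.7 and 26.9 CPM in the control and at 28.8, 26.6, 27.9 and 27.9 CPM in the knockout libraries. Control replicate 4 was above knockout replicate 2, and apart from that pair every knockout library was above every control library. The means were 22.9 ± 3.06 and 27.8 ± 0.912 CPM (SD, n = 4), a 1.22-fold level with a 95% interval of 0.953 to 1.56 (log2 fold change 0.29, edgeR adjusted p = 0.867). The unadjusted p was 0.107, and 0.0215 with a log2 fold change of 0.54 after all libraries were downsampled to the smallest. Of its exon bases 84 lie opposite Gin1.

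**Figure D2:**
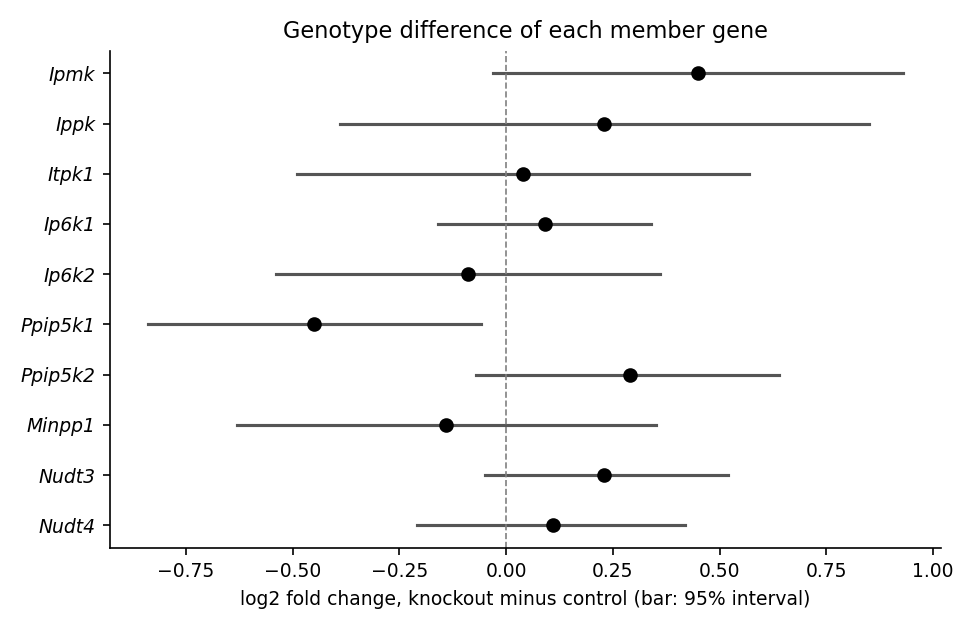
Log2 fold change of each gene, knockout minus control (points), with its 95% interval from edgeR's quasi-likelihood fit (bars). The interval of Ppip5k1, -0.84 to -0.06, is the one that does not reach 0, and it is not adjusted for the number of genes tested.

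Within a library, the share of one gene among the counts of a related pair does not depend on how libraries are scaled. The 3 related pairs were examined this way after the CPM values had been seen, so the shares are a description without a test. Ppip5k1 made up 73.5%, 70.4%, 69.9% and 71.2% of the Ppip5k1 and Ppip5k2 counts in control replicates 1 to 4. In the knockout libraries it made up 66.7%, 60.7%, 55.6% and 54.5%. The groups did not overlap in this share, with means of 71.2% ± 1.59 and 59.4% ± 5.58 (SD, n = 4). The 95% Wilson intervals of single libraries spanned 62.0% to 78.7% over the control and 47.4% to 73.0% over the knockout group, so neighbouring libraries of the 2 groups were within counting error of each other. Both the fewer Ppip5k1 counts and the more numerous Ppip5k2 counts enter that share. How often the groups separate in the share of other pairs of genes was not examined.

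The other pairs did not separate. Ip6k1 made up 78.7% to 82.5% of the Ip6k1 and Ip6k2 counts in the control and 80.9% to 85.7% in the knockout libraries. Nudt3 made up 18% to 22% of the Nudt3 and Nudt4 counts in the control and 19.6% to 25.3% in the knockout libraries. For these pairs the lowest and highest Wilson bounds were 73.2% and 89.6% and 15.5% and 28.5%. Counts of different genes are not corrected for length here, so the shares compare libraries and not the levels of the 2 genes.

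**Figure D3:**
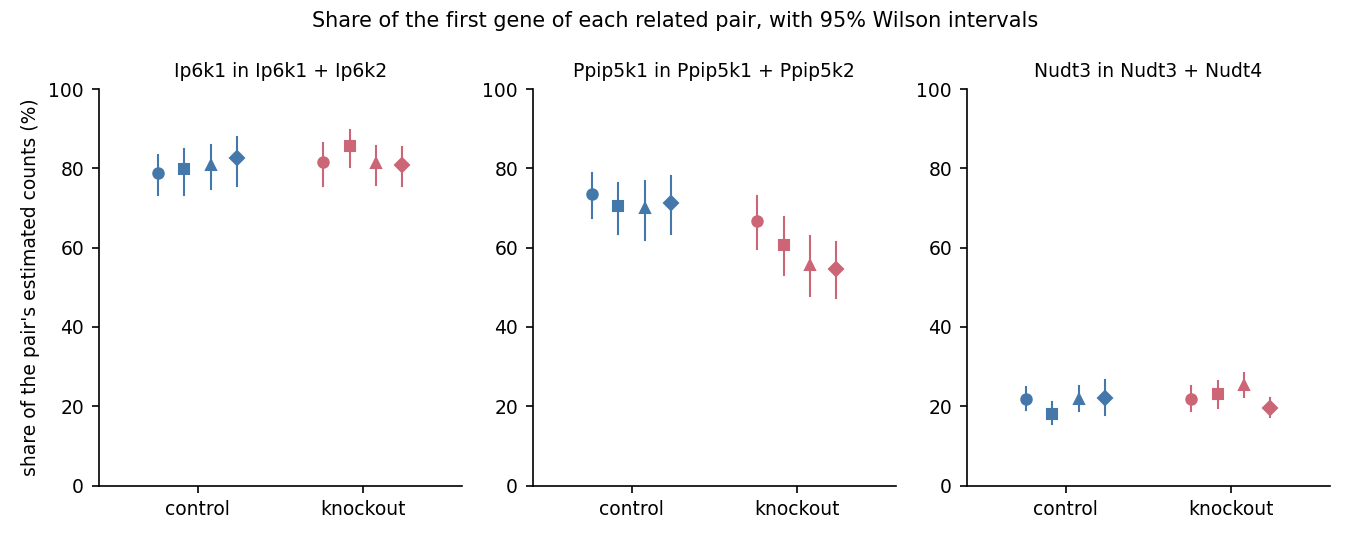
Share of the first gene in the estimated counts of each related pair, in percent, per library (symbols, replicates 1 to 4), with its 95% Wilson interval for counting error. The knockout libraries of the Ppip5k1 pair, 54.5% to 66.7%, lie below the control libraries, 69.9% to 73.5%; the other pairs overlap.

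The phosphatases completed the set. Nudt3, a diphosphoinositol polyphosphate phosphohydrolase that also removes messenger RNA caps (chr17:27579382-27623495, minus strand), was at 56.6, 56.5, 60.1 and 48.1 CPM in the control libraries. In the knockout libraries it was at 64.1, 54.5, 74.9 and 67.6 CPM, above every control library in 3 of the 4. The means were 55.3 ± 5.11 and 65.2 ± 8.47 CPM (SD, n = 4; log2 fold change 0.23, 95% interval -0.05 to 0.52, edgeR adjusted p = 0.863). The unadjusted p was 0.102, and 0.0408 without knockout replicate 2.

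Nudt4, its close relative, had the most counts of the 10, 266 to 613 per control and 453 to 845 per knockout library (chr10:95547007-95564146, minus strand). It was at 202, 256, 216 and 171 CPM in the control and at 230, 183, 221 and 277 CPM in the knockout libraries. The ranges overlapped almost throughout, and the log2 fold change was 0.11 with a 95% interval of -0.21 to 0.42 (edgeR adjusted p = 0.949). The relatives Nudt10 and Nudt11 had at most 10.8 and 9 estimated counts in any library and did not pass the filter; they share 571 words of 31 bases, so the division of reads between them is uncertain. Nudt3 and Nudt4 share no word with another gene of the table.

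Minpp1, the phosphatase that removes phosphates from IP6 in the endoplasmic reticulum, was at 21.7, 25.5, 30.9 and 20.5 CPM in the control libraries (chr19:32485769-32515364, plus strand). It was at 25.2, 14.1, 29.1 and 21.6 CPM in the knockout libraries, where only replicate 2 fell outside the control range. The log2 fold change was -0.14 with a 95% interval of -0.63 to 0.35 (edgeR adjusted p = 0.959). Minpp1 shares 607 of its 2644 words with Gm12818, which was listed at 0 in all 8 libraries.

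The spread between libraries is given beside the coefficient of variation that counting alone would give at the group's mean count, which falls as counts rise. Nudt4, with the most counts, varied by 16.9% among the control and 17% among the knockout libraries, where counting gives 4.54% and 4.11%. Ppip5k1 varied by 15.4% and 26.6%, where counting gives 8.84% and 9.75%. Minpp1 varied by 19.1% and 28.3%, where counting gives 13.4% and 13.2%. Itpk1 varied by 13.1% among the control libraries, where counting gives 13.6%, and by 41.3% against 12.5% among the knockout libraries, which include replicate 4 at 38.7 CPM. Ip6k1 varied by 8.71% and 6.20%, where counting gives 8.05% and 7.31%, and Ip6k2 by 7.94% and 12.3%, where counting gives 16.2% and 15.8%. These ratios were not tested.

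Promoters are shown for Ppip5k1 and Ipmk, which had the largest differences in either direction, and for Ppip5k2 beside its relative. They are the 250 bases before the RefSeq start on GRCm38.p6, read on the gene's strand: chr2:121351014-121351263 (minus) for Ppip5k1, chr1:97770093-97770342 (minus) for Ppip5k2 and chr10:71347513-71347762 (plus) for Ipmk. Capitals mark AGAACA, a recognition hexamer of the androgen and glucocorticoid receptors, and GGGCGG, the GC box, on either strand.
Ppip5k1: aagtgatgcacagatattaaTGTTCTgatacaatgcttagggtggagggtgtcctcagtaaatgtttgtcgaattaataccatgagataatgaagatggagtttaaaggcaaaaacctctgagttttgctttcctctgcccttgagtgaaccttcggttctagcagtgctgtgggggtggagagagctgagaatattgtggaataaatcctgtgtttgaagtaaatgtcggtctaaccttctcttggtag
Ppip5k2: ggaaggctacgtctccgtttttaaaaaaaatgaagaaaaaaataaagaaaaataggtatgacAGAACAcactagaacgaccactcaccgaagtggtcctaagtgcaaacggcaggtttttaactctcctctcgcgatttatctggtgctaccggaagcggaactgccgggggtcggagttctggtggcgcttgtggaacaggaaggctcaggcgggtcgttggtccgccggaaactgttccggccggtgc
Ipmk: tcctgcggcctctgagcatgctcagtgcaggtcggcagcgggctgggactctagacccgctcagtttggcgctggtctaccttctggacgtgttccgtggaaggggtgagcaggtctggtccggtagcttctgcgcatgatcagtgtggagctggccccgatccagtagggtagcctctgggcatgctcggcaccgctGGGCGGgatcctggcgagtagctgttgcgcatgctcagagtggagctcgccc
The sequences differ in base composition: GC made up 41.6% of the Ppip5k1 sequence, which has 3 CpG, 51.2% of that of Ppip5k2, with 18 CpG, and 64.4% of that of Ipmk, with 16 CpG. The median over all 32851 promoters of the table was 52.4% with 6 CpG. The RefSeq start of Ppip5k1 lies 4383 bases inside the GENCODE gene and that of Ppip5k2 lies 319 bases inside its own. Both sequences are therefore inside the gene and may not be promoters. Their base composition may then not be that of a promoter, and other starts of these genes were not examined.

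All 10 genes matched RefSeq by symbol, with 13 promoters in all, since Ip6k2, Ippk and Nudt3 have more than 1 start. Motifs were searched on both strands in the same 250 bases of every promoter. AGAACA was found in 3 of the 13, those of Ppip5k1, Ppip5k2 and Ip6k2, against 16.1% of all promoters. The Ppip5k1 and Ppip5k2 matches are in the sequences inside the gene, which may not be promoters. The same holds for a sequence each of Ip6k2, Ippk and Nudt3, whose starts lie 12198, 365 and 531 bases inside the GENCODE gene. GGTCA, the core of the oestrogen receptor site, was found in 2 of the 13, of Ippk and Minpp1, against 35.2%. The palindromic oestrogen response element, which contains GGTCA, was in none of the 13 and in 0.0639% of all. GGGCGG was found in 9 of the 13, from 7 genes, against 32.7%, while TATAAA and TGACGTCA were in none, against 12.4% and 1.55%. A match describes the letters of the window and is not evidence of binding.

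Beyond the 10 enzymes, 64 genes of the wider pathway were listed: inositol supply, phospholipases C and IP3 receptors, other inositol phosphate kinases and phosphatases, and proteins that bind inositol phosphates or the enzymes above. All 64 were in the table, 1 of them (Bpnt2) under its older symbol Impad1, and 54 were tested. The fitted log2 fold change, knockout minus control, was above 0 for 25 and below 0 for 29. By edgeR's test 0 reached an adjusted p under 0.05 and 2 of the 54 an unadjusted one, no larger a share than the 6.39% of all tested genes. The median log2 fold change was -0.11 for the 9 tested genes of inositol supply and -0.02 for the 12 phospholipases and receptors. It was 0.00 for the 15 other kinases and phosphatases and 0.03 for the 18 partners.

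The 2 genes with an unadjusted p under 0.05 were phosphatases with higher means in the knockout libraries. Inpp5d, also called SHIP1, is the inositol 5-phosphatase of blood-derived cells. Its values were 14.7, 7.95, 6.28 and 8.33 CPM in the control and 27.0, 13.3, 14.7 and 13.1 CPM in the knockout libraries. Control replicate 1 was within the knockout range and the other 3 control libraries were below it (log2 fold change 0.84, 95% interval 0.13 to 1.54, edgeR adjusted p = 0.689). The summed macrophage markers were also higher in the knockout group (880 to 996 against 1470 to 1790 CPM). Within that group the sum was lowest in replicate 1, which had the most Inpp5d, and highest in replicate 4, which had the least. The Inpp5d value of knockout replicate 4, 13.1 CPM, was close to the 13.3 CPM of knockout replicate 2. Among the control libraries the highest marker sum and the highest Inpp5d value both fell in replicate 1. The part of macrophages in the Inpp5d values was not tested. Inpp5k, a phosphatase of inositol phosphates and phosphoinositides, was at 27.3, 36.4, 22.9 and 27.6 CPM in the control and 39.4, 34.3, 33.4 and 41.0 CPM in the knockout libraries (log2 fold change 0.37, edgeR adjusted p = 0.775). Control replicate 2 exceeded 2 of the knockout libraries.

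Xpr1, the phosphate exporter whose SPX domain binds inositol pyrophosphates, was at 44.7, 49.4, 51.6 and 42.3 CPM in the control and at 60.0, 38.7, 59.3 and 46.2 CPM in the knockout libraries. The knockout libraries lay on both sides of the control range, and the log2 fold change was 0.11 with a 95% interval of -0.23 to 0.45 (edgeR adjusted p = 0.949). A further 3 partners, named after their values were seen, are known targets of Ip6k1 or its product in fat. Akt1 and Akt2, insulin-activated kinases that IP7 inhibits, had log2 fold changes of -0.03 and -0.14, and Plin1, the lipid droplet protein that binds Ip6k1, one of -0.05 (edgeR adjusted p = 0.985, 0.934 and 0.983).

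**Figure D4:**
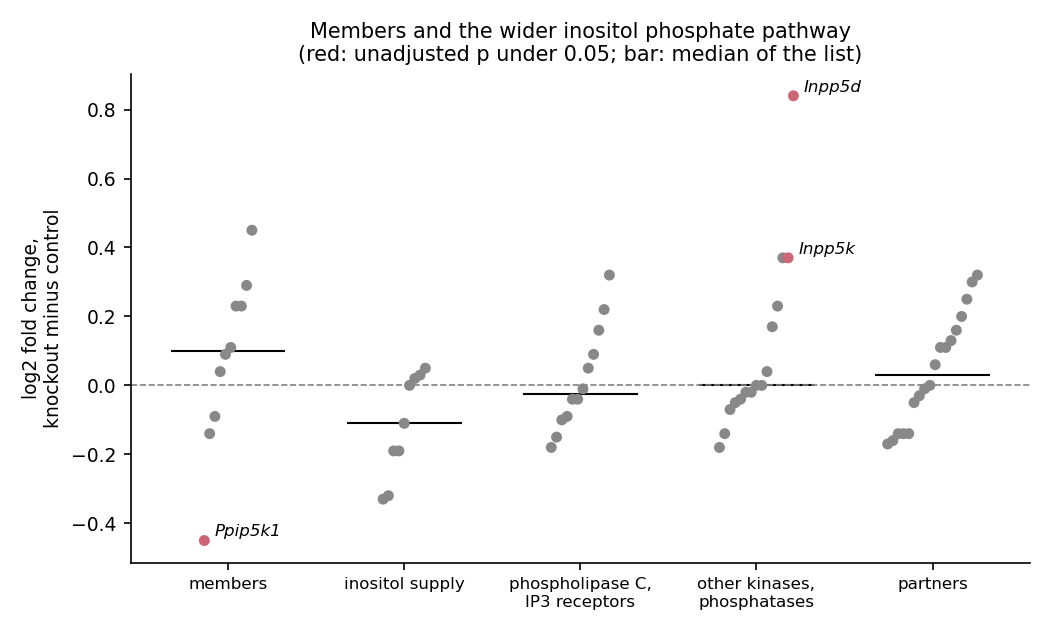
Log2 fold change, knockout minus control, of each tested gene (points) of the 10 enzymes and of the 4 wider lists, with the median of each list as a bar; red points had an unadjusted p under 0.05 and none passed after adjustment. Ppip5k1 at -0.45 and Inpp5d at 0.84 mark the ends of the range.

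The direction of most of the 10 differences did not depend on the processing. Under the 17 alternatives run, the log2 fold change of Ppip5k1 lay between -0.64 and -0.36 and that of Ipmk between 0.38 and 0.59. Those of Ppip5k2, Nudt3, Ippk and Ip6k1 also kept their sign, from 0.23 to 0.54, 0.16 to 0.31, 0.13 to 0.37 and 0.02 to 0.13. Itpk1, Ip6k2, Minpp1 and Nudt4 changed sign in 5, 1, 1 and 1 of the 17. None of the 10 passed an adjusted p of 0.05 in any of them, and the lowest adjusted p was 0.393, for Ppip5k1 without knockout replicate 1.

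**Figure D5:**
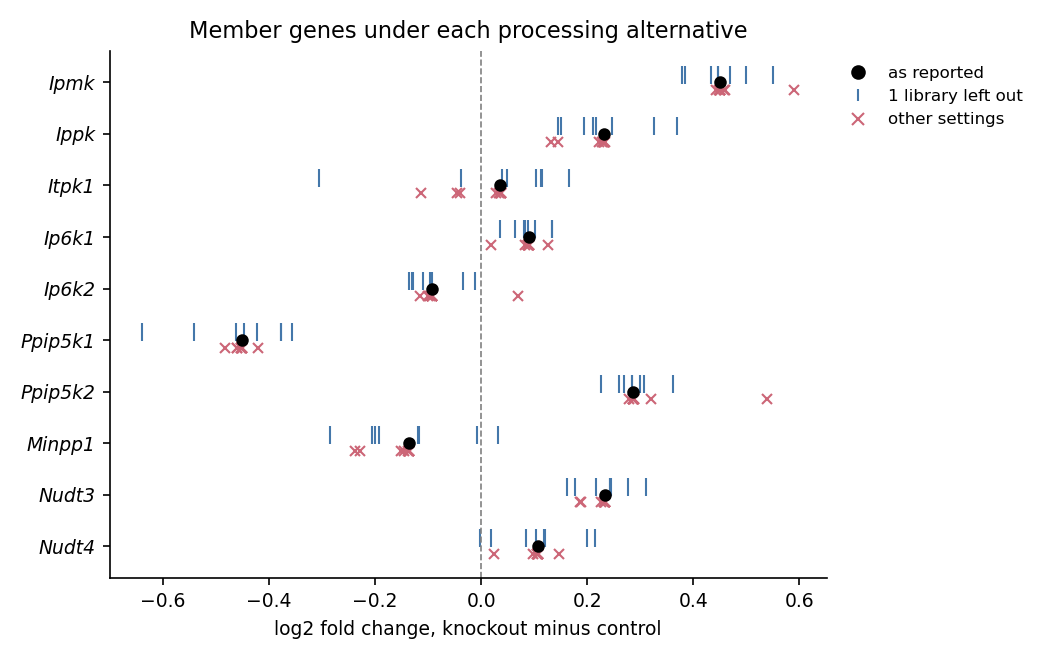
Log2 fold change, knockout minus control, of each gene as reported (circles), in the 8 fits that left out 1 library (ticks) and under the 9 other settings (crosses). The values of Ppip5k1 stay between -0.64 and -0.36 and those of Ipmk between 0.38 and 0.59, while those of Itpk1 fall on both sides of 0.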

How the data were processed

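Per the labels' protocols, RNA was made into libraries by BRB-seq, a method that primes cDNA with oligo-dT and reads near the 3′ end, with 10 cycles of PCR and 51 bases read. The submitters' processing notes name Salmon and GRCm38. The authors deposited estimated counts per gene without normalization, of which 59.6% of the values above 0 were whole. The annotation, Salmon's version and any use of molecular identifiers are not given in the sources used here. The Wilson intervals of the shares and the floors therefore cover counting error only. The intervals of the fold changes come from the fit and include the spread between libraries. Identifiers were matched without version to GENCODE M21 (34652 of 34866).

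Counts were rounded and fitted with edgeR 4.0.16 in R 4.3.3 (TMM, filterByExpr, robust quasi-likelihood F test, genotype as the only term). P-values were adjusted over all tested genes by Benjamini-Hochberg, and 95% intervals come from the fit's standard errors. The test was run first on simulated data. Alternatives tried were factors by RLE or the upper quartile, every gene above 0 kept, genes with a total of at least 80 kept, unrounded counts, DESeq2 1.42.0, limma-voom (limma 3.58.1), downsampling, the replicate number as a block and leaving out each library. Replicates of a group differed by a chi-square per degree of freedom of 4.48 to 9.4, so none was counted as a duplicate. The genes named are the 10 enzymes, their relatives, Xpr1 and wider-list genes with an unadjusted p under 0.05; other wider-list genes named were chosen after their values were seen. The members and lists were chosen with earlier results of these data known.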

Additional observations from a re-analysis of the deposited data

Results flagged for a closer look

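Dixon's test was applied to the 4 CPM values of each group for the 10 enzymes, Inpp5d, Inpp5k and Xpr1, with a critical value of 0.829 for the gap between an extreme value and its neighbour relative to the range. It was exceeded in 2 of 26 groups, and by chance 1.3 would be. Itpk1 was at 38.7 CPM in knockout replicate 4, against 16.9 to 20.2 CPM in the other knockout libraries. Inpp5d was at 27.02 CPM in knockout replicate 1, against 13.1 to 14.7 CPM in the other knockout libraries.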

How the results depend on the processing

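The number of genes past an adjusted p of 0.05, 21 as reported, was 58 without the low-count filter, 54 with DESeq2, 6 with the replicate number as a block, and 4 (without control replicate 2) to 43 (without control replicate 4) when 1 library was left out. In all of these 0 of the 10 enzymes and 0 of the wider genes passed. The number of the 10 with an unadjusted p under 0.05, 1 as reported, was 2 after downsampling (Ppip5k1 and Ppip5k2), and 0 to 2 when 1 library was left out; it was 0 without control replicate 1 or 4 or knockout replicate 3 or 4, and 2 without control replicate 2 (Ppip5k1 and Ipmk) or knockout replicate 2 (Ppip5k1 and Nudt3). The number of wider genes with an unadjusted p under 0.05, 2 as reported, was 1 with upper-quartile factors, DESeq2, limma-voom, downsampling and the replicate block, and 0 to 3 when 1 library was left out, with 0 without control replicate 3 or knockout replicate 1. Signs reversed for Ip6k2 after downsampling (0.069) and for Itpk1 with limma-voom (-0.114), downsampling (-0.046) and the replicate block (-0.04). When 1 library was left out, Itpk1 ranged from -0.306 (without knockout replicate 4) to 0.166 and was -0.038 without control replicate 4. Minpp1 ranged from -0.286 to 0.031 (without knockout replicate 2) and Nudt4 from -0.003 (without knockout replicate 4) to 0.214. The cause was not tested. Deviations of same-numbered libraries correlated at 0.25, -0.06, -0.01 and -0.24, which do not point in one direction. Whether these libraries share more than a number was not tested. The block changed no other call. Depth was lowest for Ippk and Ipmk, with 11 to 49 estimated counts per library.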

Other observations

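Among the genes that supply inositol, the transporter Slc5a3 varied more between libraries of one genotype than between genotypes, at 55.9, 113, 114 and 63.5 CPM in the control and 68.7, 56.1, 97.7 and 124 CPM in the knockout libraries (log2 fold change 0.00, edgeR adjusted p = 0.999). Slc5a3 and the other genes of this paragraph were chosen after their values were seen. Isyna1, which makes inositol phosphate from glucose phosphate, was at 34.0 CPM in control replicate 4 and at 13 to 18.4 CPM in the other control libraries, against 9.18 to 20.2 CPM in the knockout libraries. Miox, which breaks down inositol and is known from the kidney, was listed at 0 in all 8 libraries. The IP3 kinase gene Itpkb was at 46.2 to 79.1 CPM in the control and 68.2 to 72.1 CPM in the knockout libraries (log2 fold change 0.04, edgeR adjusted p = 0.984).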
